A study of Homo sapiens with 6 samples.

Results

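Among the small RNAs sequenced from activated hepatic stellate cells, 33 sequences of 21 to 25 nt carried names that the authors made from a chromosome and a number, such as chr4_16733, because they were outside the known miRNA set. They were taken as the table rows named in this way, with 4 sequences close to miR-21-5p, miR-10a-5p, miR-10b-5p and miR-221-3p left aside, and each distinct sequence was counted once. This gave 35 rows and 33 sequences of 463 distinct sequences in the table, of which 345 were known and 118 author-named. Of the 33, 10 were variants of a known miRNA of the same table and 23 were not.

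LX-2 is an immortalized human hepatic stellate cell line, here activated with TGF-β1 at 10 ng/mL, a growth factor that drives stellate cells toward a collagen-producing state. For co-culture, the activated cells were kept for 48 h beneath a porous membrane with HUC-MSCs, mesenchymal stem cells of human umbilical cord, on its upper side. For single culture the upper side was left empty, and each group had 3 libraries of LX-2 RNA. TGF-β1 is given for 24 h by the sample labels and for 48 h by the methods, and LX-2 as a cell line limits the comparison to 1 cell source. It is not stated whether libraries of a group came from separate cultures, so p-values measure only the spread between these libraries. In what follows, values for 6 libraries are given in the order of single culture libraries 1, 2 and 3 and co-culture libraries 1, 2 and 3.

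A miRNA is cut from a hairpin precursor by the nucleases Drosha and Dicer, and 1 strand of the cut duplex is loaded into an Argonaute protein. Bases 2 to 8, the seed, pair with target mRNAs and largely decide which targets are bound. Many miRNAs occur as variants whose 3′ end is a base longer or shorter, which leaves the seed as it is. Short RNA reads can also come from other transcripts, and a table of candidate miRNAs can therefore hold fragments of other RNAs.

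The members that the results turn on are shown first. Of the 10 variants, all 10 differed from the known form by 1 base at the 3′ end, 7 being longer and 3 shorter. Each of them lay within a RefSeq hairpin of its miRNA, so the extra base was one that the precursor itself has. The 4 variants with enough tags to be tested are given with their known forms, with the seed and the 3′ base that only 1 of the forms has in capitals.
chr10_774: aCUCGGCGuggcgucggucgugG
miR-1307-3p: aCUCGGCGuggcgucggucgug
chr7_21159: uGAGAACCacgucugcucuga
miR-589-5p: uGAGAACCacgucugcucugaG
chrX_24478: cAAAACGUgaggcgcugcuauA
miR-424-3p: cAAAACGUgaggcgcugcuau
chr15_5543: uGGGUUUAcguugggagaacuU
miR-629-5p: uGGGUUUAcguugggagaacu

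The 2 most abundant members matched no known miRNA of the table, no RefSeq hairpin and no GENCODE transcript searched. They are shown because they held nearly all tags of the group. In chr4_16733 the capitals mark 5 bases at each side that can pair with each other around 7 bases, and in chrX_23878 they mark bases 2 to 8.
chrX_23878: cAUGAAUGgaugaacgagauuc
chr4_16733: cacuCUGGAcucugaaUCCAG
This run of 5 complementary bases around 7 others was found in 1 of the 33 members, and in 3 of all 463 sequences, or 0.648%. The search covered 206694 GENCODE release 29 transcripts, which hold no nuclear tRNA genes and no genes of the large ribosomal RNAs of the cytoplasm. A sequence without a match may therefore belong to an RNA outside the search.

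The libraries differed in depth. Single culture held 209043, 43956 and 47528 tags and co-culture held 325037, 604418 and 421964. The lowest count given was 2, so a blank means 0 or 1 tag, and in the 2 smallest libraries 2 tags corresponded to 31.0 and 29.7 CPM (tags relative to library size, here scaled by TMM, a method that sets libraries to the same level for most sequences) against 5.34 to 7.77 CPM in the others. Sequences of 17 to 20 nt made up 7.56%, 23.4% and 25.7% of the tags of single culture and 3.79%, 2.28% and 2.12% of those of co-culture. Single culture library 1 resembled the co-culture libraries more (r of log2 CPM across sequences, 0.97 to 0.981) than its own group (0.932 and 0.914). miR-21-5p and its longer form made up 37.1% to 56.4% of the tags of single culture and 75.0% to 81.2% of those of co-culture. Of 7 stellate and mesenchymal marker miRNAs, 6 were listed, and miR-214-3p was not. miR-145-5p, miR-199a-3p and miR-199a-5p had at most 6, 4 and 8 tags in a library, against 310 of miR-143-3p, 586 of miR-221-3p and 41110 of miR-21-5p. None of the markers of hepatocytes, blood cells, epithelial cells or muscle were listed. The list takes stellate and mesenchymal cells together, so it cannot tell LX-2 from HUC-MSCs.

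The 33 members fell into classes of very unequal weight. The 10 variants held 501 tags in all 6 libraries, with 44 tags at most in 1 library. A further 4 members lay in an annotated miRNA gene whose arm had no known row, and held 37 tags. Another 8 matched the sense strand of another annotated transcript, and held 41 tags, 1 was antisense to MIR4645, with 3 tags, and 10 matched nothing searched. These 10 held 38445 tags, of which chrX_23878 held 32673 and chr4_16733 held 5692.

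**Figure D1:**
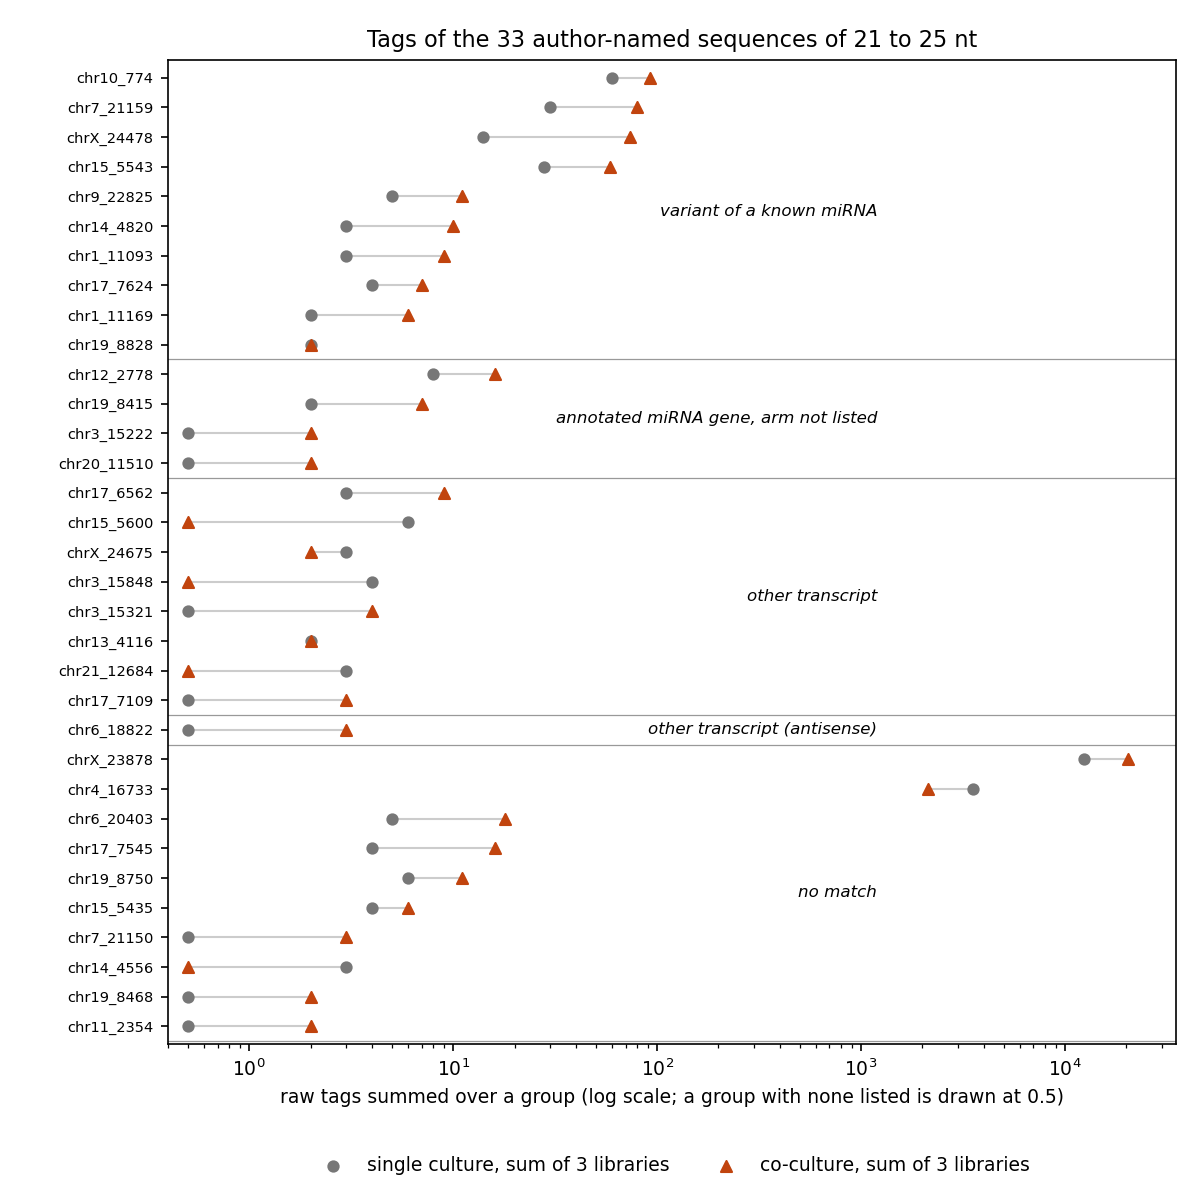
Raw tags of each of the 33 members, summed over the 3 libraries of single culture (grey circles) and of co-culture (red triangles), on a log scale and grouped by what the sequence matched. chrX_23878 and chr4_16733 stand far to the right of all others, and 8 members had no tags listed in single culture against 4 had none in co-culture.

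Most of the members were rare. The number of members listed was 23, 10 and 7 in the single culture libraries against 19, 26 and 16 in the co-culture libraries. In all 6 libraries 5 members were listed, and in 1 library only, 11. As a share of the 33, this was 69.7%, 30.3% and 21.2% against 57.6%, 78.8% and 48.5%, while 49.3% to 79.1% of the known sequences were listed in single culture against 70.4% to 81.7% in co-culture. The smallest libraries also had the smallest lists of members.

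After a minimum of 10 counts in at least 3 libraries, 6 of the 33 members were tested among 182 sequences, and they are not all members. The 4 tested variants lay under 10 tags in single culture libraries 2 and 3, so co-culture alone could meet the minimum for them. The edgeR quasi-likelihood test with Benjamini-Hochberg adjustment over the 182 called 8 sequences, or 4.40% (2.20% higher and 2.20% lower in co-culture). Of these, 4 were higher and 4 lower, against 1 and 139 with library size alone, 1 and 20 with the authors' scaling and 5 and 17 by DESeq2. Of the 6 members, 1 was called, lower in co-culture. At an unadjusted p under 0.05 there were 2 of the 6, against 25.3% of all sequences tested, and in 2 of the 6 the libraries of the groups did not overlap in CPM, against 36.3%. These were 1 higher and 1 lower in co-culture, against 20.3% and 15.9% of all sequences tested. The median log2 fold change, co-culture over single culture, was −0.21 over the 6 and −0.04 over all 182.

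The sequence called was chr4_16733. It had 2577, 454 and 520 tags in the single culture libraries against 806, 709 and 626 in the co-culture libraries, the largest library of co-culture holding 604418 tags in all. After TMM scaling this was 8506, 7048 and 7724 CPM against 3131, 1893 and 2226 CPM. All 3 single culture libraries were above all 3 of co-culture. The means were 7759 ± 730 and 2417 ± 641 CPM (SD, n = 3 in each group). chr4_16733 fell by 1.68 (log2 fold change, standard error 0.21, 95% interval −2.19 to −1.18, edgeR adjusted p = 0.00739), the third smallest p of the 182. In bulk RNA, fewer cells carrying an RNA and less of it in each cell cannot be told apart.

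As a share of all tags, a scale on which 139 of the 140 sequences called were lower in co-culture, chr4_16733 made up 1.23% (95% Wilson interval 1.19% to 1.28%), 1.03% (0.943% to 1.13%) and 1.09% (1.00% to 1.19%) of the tags in single culture. In co-culture it made up 0.248% (0.231% to 0.266%), 0.117% (0.109% to 0.126%) and 0.148% (0.137% to 0.16%). The exact two-sided permutation test gave p = 0.10, the smallest that 3 against 3 libraries allow, and these intervals cover counting error only. As a share of the tags other than the MIR21 5p forms, it made up 2.83%, 1.72% and 1.74% in single culture against 0.993%, 0.622% and 0.787% in co-culture. The groups did not overlap on this scale either (exact two-sided permutation p = 0.10), and single culture library 1 was the highest. With sequences of 21 nt or longer only, the log2 fold change was −1.79 (edgeR adjusted p = 0.000203). Without single culture libraries 2 and 3 it was −1.82, a fit in which the 1 library left in that group is assumed to vary like those of co-culture. Leaving out co-culture library 2 or 3 ended the call (−1.55 and −1.65, edgeR adjusted p = 0.0534 and 0.0659). So did adding the library number to the fit as a block (−1.71, edgeR adjusted p = 0.0532).

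**Figure D2:**
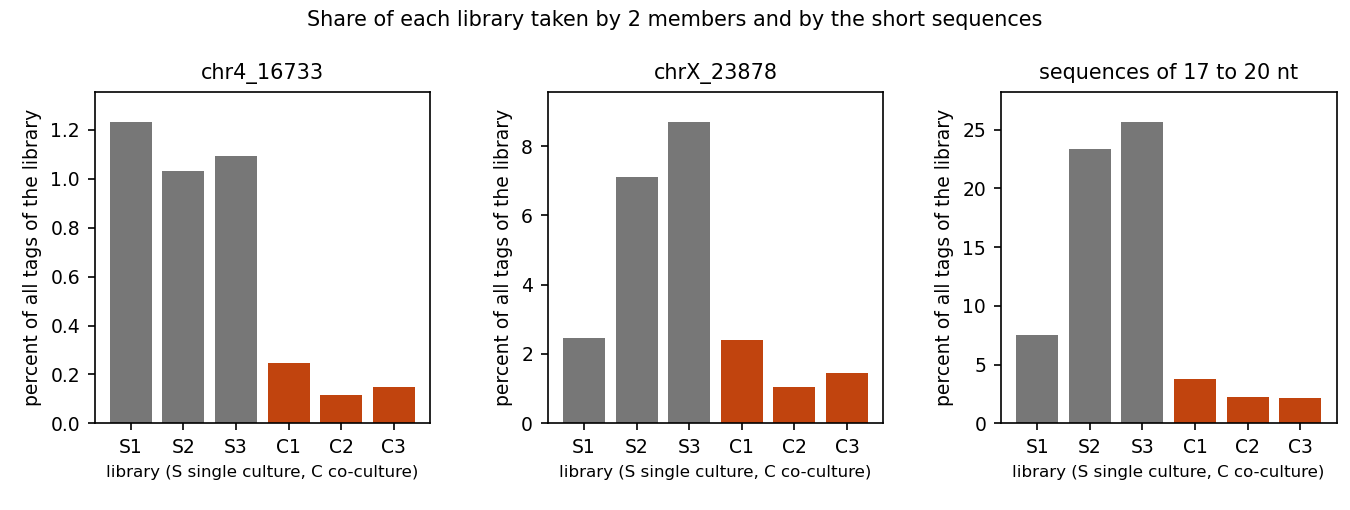
Percent of all tags of each library taken by chr4_16733 (left), chrX_23878 (middle) and all sequences of 17 to 20 nt (right), for single culture (grey) and co-culture (red), with the axes starting at 0. chr4_16733 lies between 1.03% and 1.23% in single culture and at or below 0.248% in co-culture, whereas chrX_23878 is at 2.47% in single culture library 1 and 2.39% in co-culture library 1.

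chrX_23878 was the fourth most abundant of all sequences by mean CPM and was not called with all libraries, TMM scaling and the minimum count. It had 5153, 3124 and 4133 tags in single culture against 7772, 6366 and 6125 in co-culture, or 17009, 48500 and 61390 CPM against 30191, 16997 and 21778 CPM. Single culture library 1 lay at the level of the lowest co-culture library, so the groups overlapped, and the other 2 single culture libraries were above all of co-culture. The log2 fold change was −0.88 (standard error 0.47, 95% interval −1.99 to 0.24, edgeR adjusted p = 0.291). It passed with no minimum count (−0.82, edgeR adjusted p = 0.00462), with library size alone (−1.90, edgeR adjusted p = 0.0107) and without single culture library 1 (−1.28, edgeR adjusted p = 0.0039). Without single culture libraries 2 and 3, which leaves 1 library in that group, the value was 0.43, so its direction rests on those libraries.

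As a share of the tags, chrX_23878 made up 2.47% (2.40% to 2.53%), 7.11% (6.87% to 7.35%) and 8.70% (8.45% to 8.95%) in single culture. In co-culture it made up 2.39% (2.34% to 2.44%), 1.05% (1.03% to 1.08%) and 1.45% (1.42% to 1.49%). Of the tags other than the MIR21 5p forms, it made up 5.65%, 11.8% and 13.8% in single culture against 9.58%, 5.59% and 7.70% in co-culture. On this scale the groups overlapped (exact two-sided permutation p = 0.30). The 2 libraries with the highest shares were also those with the highest shares of sequences of 17 to 20 nt (23.4% and 25.7%) and the fewest tags. The part of these in the level of chrX_23878 was not tested.

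The 2 abundant members did not keep a constant ratio to each other. For every 100 tags of chrX_23878 there were 50.01, 14.53 and 12.58 tags of chr4_16733 in single culture against 10.37, 11.14 and 10.22 in co-culture. Each single culture library was above all of co-culture (exact two-sided permutation p = 0.10, the smallest possible), and single culture library 1 stood apart from the other 2. Since the ratio is taken within a library, it does not depend on how libraries are scaled.

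All 23 members that are not variants took 3.72%, 8.16% and 9.80% of the tags in single culture against 2.65%, 1.18% and 1.60% in co-culture. The groups did not overlap, with means of 7.23 ± 3.15% and 1.81 ± 0.757% (SD, n = 3 each, exact two-sided permutation p = 0.10, the smallest possible). The shares without chrX_23878 and chr4_16733 were 0.0177%, 0.0250% and 0.0105% against 0.0108%, 0.00910% and 0.00427%, and these overlapped (exact permutation p = 0.20). As a share of the tags other than the MIR21 5p forms, the values for the 23 members overlapped as well (8.52%, 13.6% and 15.6% against 10.6%, 6.26% and 8.51%, exact permutation p = 0.20). The 10 variants together took 0.0555%, 0.0409% and 0.0358% against 0.0292%, 0.0248% and 0.0249% (exact permutation p = 0.10, the smallest possible). For the variants the direction depended on what the share was taken of. Without the MIR21 5p forms, the difference between the group means of the variants was 0.0429 percentage points in favour of co-culture, against −0.0178 with them. The groups overlapped without these forms, at 0.127%, 0.0680% and 0.0568% against 0.117%, 0.132% and 0.132% (exact permutation p = 0.20).

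**Figure D3:**
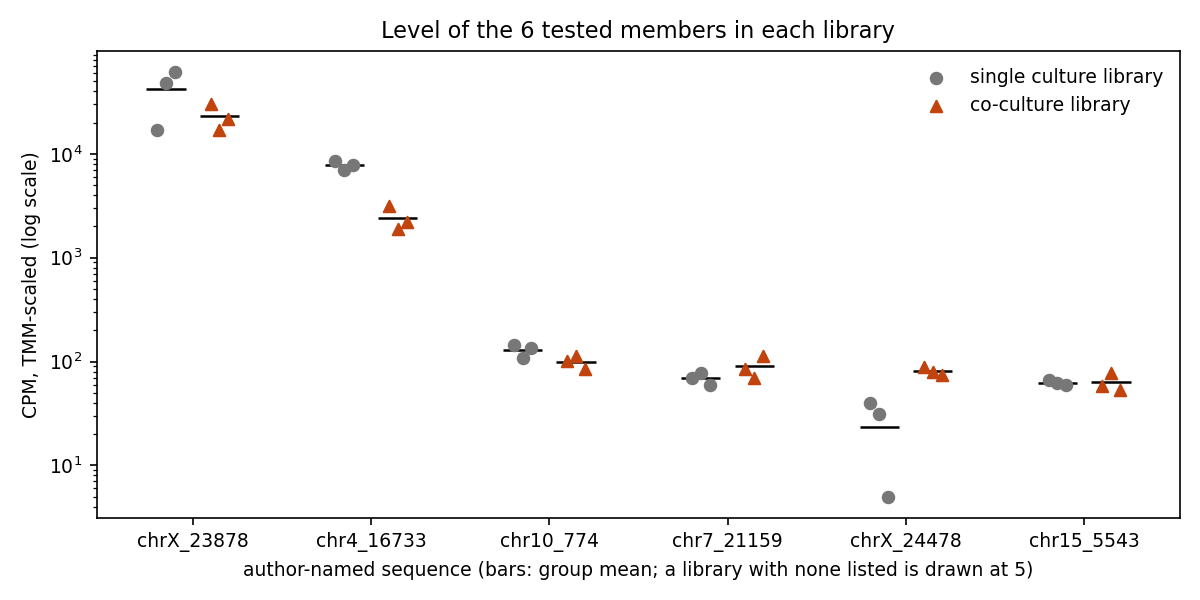
TMM-scaled CPM of the 6 tested members in each library of single culture (grey circles) and co-culture (red triangles), on a log scale, with the group mean as a bar. The groups separate for chr4_16733, lower in co-culture, and for chrX_24478, which was not listed in 1 single culture library (drawn at 5).

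Among the variants, chrX_24478 is the 3′ form of miR-424-3p that is 1 base longer. miR-424-3p comes from the 3′ arm of the MIR424 hairpin, a miRNA gene of chromosome X, and the variant lies at chrX:134546643-134546664 on the minus strand (GRCh38.p14). It had 12, 2 and 0 tags listed in single culture against 23, 30 and 21 in co-culture, or 39.6, 31.0 and 0 CPM against 89.3, 80.1 and 74.7 CPM. All co-culture libraries were above all of single culture. The minimum count could be met by co-culture alone, the group with more of this sequence, so the separation and the fold change are descriptions. The log2 fold change was 1.38 (standard error 0.46, 95% interval 0.28 to 2.48), with an unadjusted p of 0.021 and an edgeR adjusted p of 0.115, so it did not pass.

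The known form, miR-424-3p, had 16, 3 and 4 tags in single culture against 23, 25 and 26 in co-culture. Its CPM was higher in every co-culture library than in any of single culture, as for 20.3% of all sequences tested. On the log2 scale it changed by 0.63 (standard error 0.28, edgeR adjusted p = 0.213). Co-culture alone could meet the minimum count here as well, so these values are descriptions. In another fit each variant was first added to its known form. The sum of the 2 forms of miR-424-3p changed by 1.00 on the log2 scale (standard error 0.21, edgeR adjusted p = 0.0443) and passed. For the sum, too, co-culture alone could meet the minimum count, the group with more of it, so its passing is a description only. This fit was chosen after the values were seen, and 181 sequences were tested in it.

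chr10_774 is 1 base longer than miR-1307-3p, from a hairpin that lies in a 5′ untranslated exon of ATP5MD, which encodes a subunit of the mitochondrial ATP synthase complex (chr10:103394300-103394322, minus strand, GRCh38.p14). It had 44, 7 and 9 tags in single culture against 26, 42 and 24 in co-culture, or 129 ± 18.7 and 99.5 ± 13.5 CPM (SD, n = 3 each). The groups overlapped, and the log2 fold change was −0.42 (standard error 0.20, 95% interval −0.91 to 0.06, edgeR adjusted p = 0.247).

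chr7_21159 is 1 base shorter than miR-589-5p, whose hairpin lies in an intron of FBXL18, an F-box protein gene (chr7:5495874-5495894, minus strand). It had 21, 5 and 4 tags in single culture against 22, 26 and 32 in co-culture, or 68.8 ± 9.12 and 89.6 ± 22.5 CPM. The groups overlapped, the log2 fold change was 0.36 (standard error 0.29, 95% interval −0.34 to 1.06, edgeR adjusted p = 0.48), and its sign changed with library size alone and with the authors' scaling.

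chr15_5543 is 1 base longer than miR-629-5p, whose hairpin lies in an intron of TLE3, a transcriptional corepressor gene (chr15:70079426-70079447, minus strand). It had 20, 4 and 4 tags in single culture against 15, 29 and 15 in co-culture, or 62.5 ± 3.32 and 63.0 ± 12.7 CPM. The mean levels lay close together, and the 95% interval of the log2 fold change was −0.62 to 0.62 (edgeR adjusted p = 0.997).

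The 6 tested members differed in how far their values moved with the processing. chr4_16733 stayed below 0 in each of 19 alternatives, with values of −2.71 to −1.55, and chr10_774 stayed below 0 and chrX_24478 above 0 in each of 17. For chrX_24478, whose minimum count could be met by co-culture alone, the constant sign is a description only. The values of chrX_23878, chr7_21159 and chr15_5543 lay on both sides of 0.

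**Figure D4:**
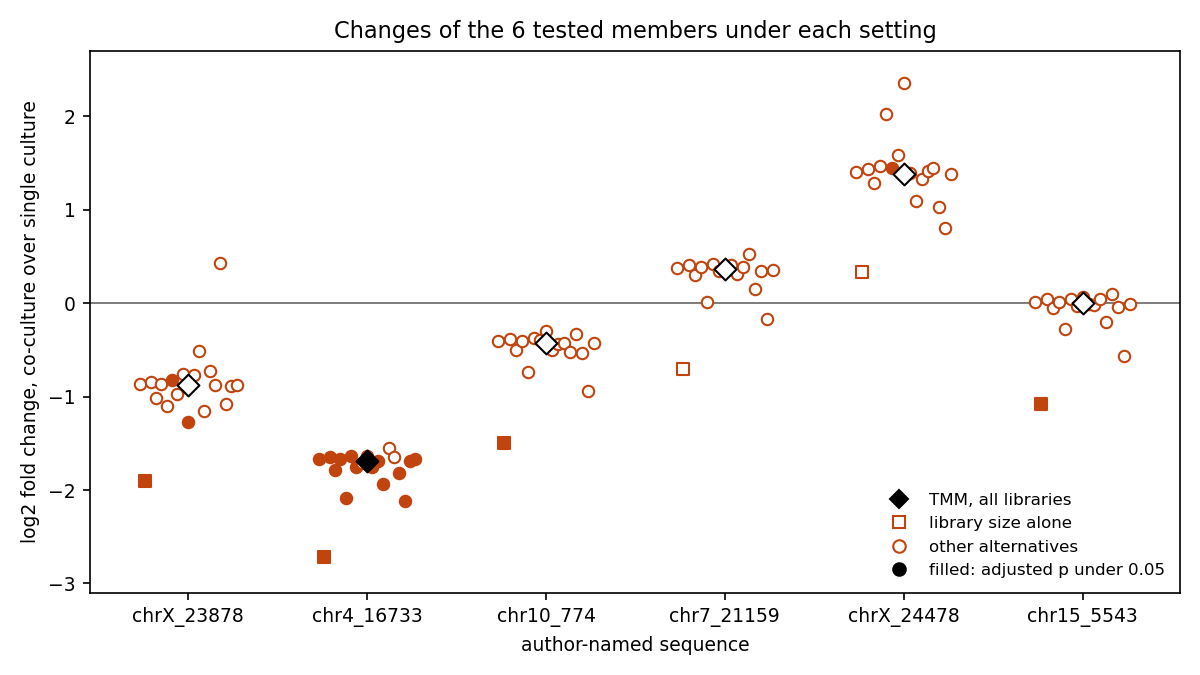
Log2 fold change (co-culture over single culture) of the 6 tested members in the fit with all libraries and TMM scaling (diamonds), with library size alone (squares) and under the other alternatives (circles), filled where the adjusted p was under 0.05 and open where it was not or was not given. chr4_16733 is below 0 throughout (−2.71 to −1.55), chrX_23878 is above 0 in 1 fit, and chr15_5543 lies on both sides of 0.

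**Figure D5:**
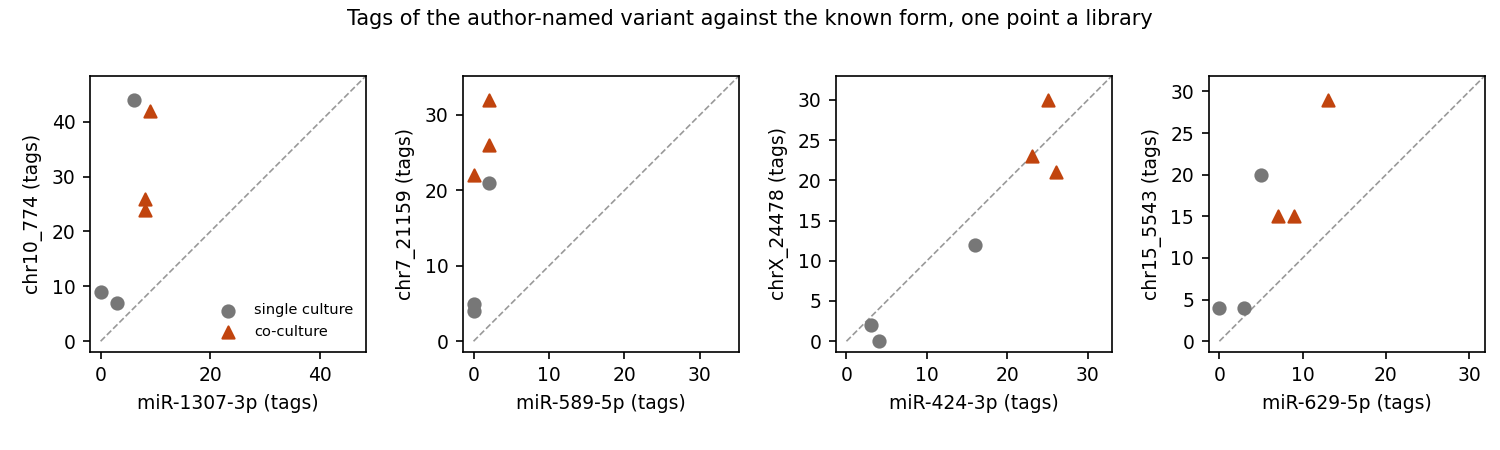
Tags of the known form (horizontal axis) against tags of the author-named variant (vertical axis) for the 4 tested variants, one point for each library of single culture (grey circles) and co-culture (red triangles), with a dashed line at equal tags. In 3 of the panels all 6 libraries lie above the line, and for miR-424-3p the points lie near it.

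The author-named form was the more abundant of the 2 in most pairs. Over all 6 libraries, the 10 variants had 501 tags and their known forms 218, and the variant had more tags in 7 pairs, fewer in 2 and as many in 1. The rarer of the 7 pairs rest on few tags, at 16 against 5, 13 against 2, 12 against 10 and 11 against 8. The longer form of miR-1307-3p had 152 tags against 34, and it was the more abundant form in all 6 libraries (known form 6, 3, 0, 8, 9 and 8). The shorter form of miR-589-5p had 110 tags against 6, also in all 6 libraries (known form 2, 0, 0, 0, 2 and 2). The longer form of miR-629-5p had 87 against 37, again in all 6 (known form 5, 0, 3, 9, 13 and 7). The 2 forms of miR-424-3p were close, with 88 tags of the longer form and 97 of the known one.

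By the planned minimum of 10 tags of both forms together in each library, 0 pairs could be compared between the groups. The 4 pairs whose variant was tested were compared instead, a choice made after the counts were seen, by the log2 of the variant's tags plus 0.5 over those of the known form plus 0.5. The ratio did not overlap between the groups in 1 of these 4 pairs. The share was 50% over the 8 author-named variants of this length tested in the table, which include these 4. In that pair, chrX_24478 over miR-424-3p, the log2 ratio was −0.40, −0.49 and −3.17 in single culture against 0.00, 0.26 and −0.30 in co-culture (exact two-sided permutation p = 0.10 and 0.40 after adjustment over the 4 pairs). The third value rests on 0 listed tags of the variant against 4 of the known form, and the other 2 single culture values lay just below the lowest of co-culture. The other 3 pairs overlapped (exact permutation p = 0.40, 0.20 and 0.40). No known form other than miR-424-3p passed the minimum count, and of the 18 known sequences of the table that share a seed with a member, 2 were tested and 0 were called by edgeR or by DESeq2, with 1 at an unadjusted p under 0.05 in edgeR.

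The other 6 variants had 4 to 16 tags each. chr9_22825 is 1 base longer than miR-455-3p, from an intron of the collagen gene COL27A1, and had 5 tags in single culture against 11 in co-culture. chr14_4820 is 1 base longer than miR-625-3p, from an intron of the fucosyltransferase gene FUT8, with 3 and 10 tags. chr1_11093, also listed under the name chr9_23328, is 1 base shorter than miR-199a-3p, a miRNA abundant in mesenchymal cells, and had 3 and 9. Its sequence is the same in MIR199A1, MIR199A2 and MIR199B, so its gene of origin cannot be told apart.

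chr17_7624, chr1_11169 and chr19_8828 were the remaining variants, of miR-454-3p, miR-181b-5p and miR-3940-3p. chr17_7624 had 4 tags in single culture against 7 in co-culture, and its seed is that of the miR-130 family. chr1_11169 had 2 and 6, with the seed of miR-181a-5p, and chr19_8828 had 2 and 2. The known form of miR-181b-5p had 15 tags against 8 of the variant, and with miR-424-3p it was the other pair in which the known form was the more abundant one.

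The 4 members in miRNA genes with no known row of that arm are equal to, or overlap, an annotated mature arm. Their sequences are shown with the seed in capitals, because each places an author-named row in a known miRNA gene.
chr12_2778: cUAGGUAUggucccagggauc
chr19_8415: aCCAUCGAccguugaguggac
chr3_15222: aGCUGGUGuugugaaucaggc
chr20_11510: uUAAGACUugcagugauguuua
chr12_2778, of the miR-331-5p arm, had 5, 3 and 0 tags in single culture against 6, 6 and 4 in co-culture, the most of the 4. chr19_8415, of the miR-181c-3p arm, had 2, 0 and 0 against 2, 3 and 2, and has the seed of miR-181a-3p. chr3_15222, of miR-138-5p, whose sequence lies in both MIR138-1 and MIR138-2, had 2 tags in co-culture library 2 only. chr20_11510, of miR-499a-5p, which is cut from an intron of the muscle myosin gene MYH7B, also had 2 tags in that library only.

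Of the 10 members with no match, the 8 besides chrX_23878 and chr4_16733 had 2 to 23 tags. chr6_20403 had 3, 0 and 2 tags in single culture against 6, 5 and 7 in co-culture. chr17_7545 had 4, 0 and 0 against 4, 9 and 3. chr19_8750 had 4, 2 and 0 against 2, 9 and 0. None of them reached 10 tags in any library, and differences at these counts were not detectable at this depth. chr15_5435 had 4 tags in single culture library 1 and 3 in each of co-culture libraries 1 and 2.

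A seed shared with a known miRNA of the table was found for 2 members of this class, shown with the known miRNA that has the same bases 2 to 8 in capitals.
chr7_21150: gCCACUGAugagccucugagg
miR-181a-2-3p: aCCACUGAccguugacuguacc
chr14_4556: uAUGUCUGcggaccacccacc
miR-654-3p: uAUGUCUGcugaccaucaccuu
Each of these members had 3 tags, chr7_21150 in co-culture library 1 and chr14_4556 in single culture library 1, and was listed in no other library. chr4_16733 shares its bases 2 to 8 with miR-514a-5p of RefSeq, and with no known miRNA of the table. Beyond the seed chr7_21150 and chr14_4556 differ from the miRNAs shown beside them, and a shared seed at 3 tags is a description only.

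The 8 members that match another annotated transcript had 3 to 12 tags each. chr17_6562 matched CCDC144NL-AS1, a long noncoding RNA, with 3, 0 and 0 tags in single culture against 4, 3 and 2 in co-culture. chr15_5600 matched the coding sequence of NPTN, the cell adhesion gene neuroplastin, and was listed in single culture libraries 2 and 3 only, with 3 tags in each. chr3_15848 matched the coding sequence of IMPDH2, an enzyme of guanine nucleotide synthesis, and chr17_7109 that of MYO1C, an unconventional myosin. chr13_4116 matched the 3′ untranslated region of COL4A1, a basement membrane collagen made by stellate cells, with 2 tags in single culture library 1 and 2 in co-culture library 2. chrX_24675 matched the 3′ untranslated region of UBL4A, chr21_12684 a coding stretch of EIF3F and related pseudogenes, and chr3_15321 the 5′ untranslated region of FTH1, the ferritin heavy chain, whose gene is on chromosome 11 and not on the chromosome in the member's name.

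The first base of the members and their GC content were compared with those of other sequences of the table. Of the 33, 30.3% began with U, the base that many human miRNAs have first, against 45.7% of the 337 known sequences of 21 to 25 nt and 22.2% of the 81 author-named sequences of 17 to 20 nt. A first G was found in 15.2% of the members, 5.6% of the known sequences and 6.2% of the short author-named ones. The median GC content was 52.4% for the members and 47.6% for the known sequences. The 10 variants, whose first base is that of the known form, had a median of 47.9%, and the 19 members outside miRNA genes had 54.5%. These are descriptions of the sequences, with no test.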

How the data were processed

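Small RNA of LX-2 cells was sequenced on an Illumina instrument. Bowtie 0.12.2, hg18 and mm8 are named in the submitters' processing notes, with roles not given. The authors deposited raw tag counts per mature sequence, and scaled tag counts, a score per sequence whose target is not stated. Columns were assigned to groups through the authors' mean columns, which equalled these columns' means in 519 of 519 rows, and 0 columns had no group. The authors' fold changes and p-values were not used.

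Rows were merged by sequence. edgeR 4.0.16 (R 4.3.3) was run on raw counts with TMM on the 182 sequences that had 10 or more counts in at least 3 libraries, over which p-values were adjusted by Benjamini-Hochberg and library sizes summed. limma 3.58.1 and DESeq2 1.42.0 were alternatives. Shares and ratios (pseudocount 0.5) were compared by exact permutation tests in scipy 1.17.1. In simulated data for this comparison (182 sequences, 20 runs), the fit found 98.3% of the 4-fold changes and 57.2% of the 2-fold ones. These rates are over sequences of all levels and without an outlying library, so they do not give the rate for the rare members. Sequences were matched exactly to RefSeq hairpins (GRCh38.p14) and GENCODE release 29. Mature miRNAs of RefSeq (GRCh38.p14) were matched by a shared run of 16 or more bases. A variant shared 16 or more bases with a known sequence from the same end. Named are the called member, variant pairs, the 10 most abundant other members, tested members, and members sharing a seed or matching a small RNA gene; members matching other transcripts were added after their values were seen. The members and lists were chosen with earlier results of these data known. Depth was 43956 to 604418 tags per library.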

Additional observations from a re-analysis of the deposited data

How the results depend on the processing

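Of the 6 tested members, 1 was called with all libraries and TMM scaling. The number called was 4 with library size alone (all lower in co-culture, where 139 of 140 calls among all sequences were lower and the median of all log2 fold changes was −1.11), 3 with no minimum count, and 0 to 2 when 1 library was left out. Deviations from the group means did not correlate positively between same-numbered libraries (−0.356, −0.115 and −0.212). With 3 libraries per group, these values cannot tell whether the numbers pair the samples. With the replicate block, edgeR called 0 members and 0 sequences in all (8 without it, and 30 with the block at an unadjusted p under 0.05), and chr4_16733 had −1.71 (edgeR adjusted p = 0.0532). Among all sequences, 37 were called with no minimum count, 21 with a minimum of 50, 22 by DESeq2, 21 with the authors' scaling, 11 (0 higher) by limma on the authors' values, 12 with variants added to their known form, 13 without the 2 single culture libraries of fewest tags, and 0 to 43 with 1 library left out: 43 without single culture library 1, and 0 without co-culture library 2 or 3 (34 and 33 at an unadjusted p under 0.05 in edgeR). The authors' scaling moved the median of all log2 fold changes to −0.56. chr4_16733 kept its direction in all 19 alternatives (−2.71 to −1.55, edgeR, DESeq2 or limma adjusted p 2.23e-12 to 0.0659). chrX_23878 turned to 0.43 without the 2 single culture libraries of fewest tags (the lone library left is assumed to vary like co-culture), and chr7_21159 to −0.71 with library size alone and −0.17 with the authors' scaling. chr15_5543, at −0.00102 with all libraries and TMM scaling, was 0.0103 with RLE scaling, 0.0105 with DESeq2, 0.0413 with the MIR21 sequences left out of the scaling, 0.0465 with no minimum count, and −0.20 to 0.10 with 1 library left out. It was −0.56 with the authors' scaling. With library size alone it was −1.08 and chr10_774 −1.49, both called. chrX_24478 was called with no minimum count (1.45, edgeR adjusted p = 0.0269, range over its alternatives 0.0269 to 0.564), and DESeq2 gave no adjusted p for it or for chr15_5543. The share of tags in the variants, co-culture minus single culture, changed from −0.0178 to 0.0429 percentage points when the MIR21 5p forms were left out of the total, where the groups overlapped. It was −0.0219 to −0.0120 with 1 library left out. That of the other members kept its direction in all 8 alternatives (−7.42 to −4.09). The ratio of variant to known form did not overlap in 0 pairs by the planned minimum, and in 1 pair once pairs were taken by the minimum count of the fit. The cause of these changes was not tested. Depth limits the 27 untested members, which lay under 10 tags in every library.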
